A study of Mus musculus with 37 samples.

Results

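The 10 genes described here, Ttr, Kl, Folr1, Kcnj13, Aqp1, Enpp2, Clic6, Otx2, Sostdc1 and Kcne2, are known for their high expression in the choroid plexus. They were chosen by name, and each probe set annotated to one of these symbols alone was used. Of the 10 genes, 9 were measured, by 15 of the 34945 probe sets with 1 gene symbol. Enpp2, which encodes autotaxin, the secreted enzyme that makes lysophosphatidic acid, is not analysed here because no probe set carried its symbol. The choroid plexus is a folded epithelium over a core of vessels that hangs in the brain ventricles. It secretes most of the cerebrospinal fluid and passes hormones, vitamins and ions between blood and that fluid. A strip of it lies in the temporal horn of the lateral ventricle, beside the hippocampus, so a dissected temporal lobe can carry more or less of it.

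The study compared the temporal lobe of mice lacking Wfs1 (KO) with that of wild-type (WT) mice in the strains labelled C57 and 129, which the design text writes as C57B6 and 129S6. Wfs1 encodes wolframin, a membrane protein of the endoplasmic reticulum that is mutated in Wolfram syndrome. Tissue from 9 C57 KO, 9 C57 WT, 10 129 KO and 9 129 WT samples was dissected under a microscope and frozen, and its RNA was hybridised to 37 one-colour Affymetrix arrays. The labels give the genotype as a loss of the gene with no tissue or time restriction, name no treatment, and give neither sex, age nor litter. Whether every array stands for a separate mouse is not stated, so a p-value here reflects the spread between samples, which may be partly technical.

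All values are probe set signals on a log2 scale, and a difference of 1 between arrays is a 2-fold ratio of signals. Each array is named by its group and the number in its title. Testing was limited to the 13078 of 18193 genes with 1 or more group means at or above 3.60, which is the 40th percentile over all probe sets. The signal of Wfs1 itself lay between 2.75 and 3.60 in C57 KO against 9.16 to 9.73 in C57 WT, and between 2.64 and 3.59 in 129 KO against 9.11 to 9.52 in 129 WT, so every array had the genotype of its label. Array medians lay between 4.30 and 4.36. All 8 measured cortex and amygdala markers and 13 of 19 measured hippocampus markers other than Wfs1 passed the filter. The residuals of 1 gene, Gprin3, split the arrays into sets of 19 and 18 that follow lower and higher sample numbers within each group. The meaning of the numbers is not given in the labels.

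A pair of WT arrays, C57 WT 34 and 129 WT 72, stood apart from all others in the choroid plexus genes. The mean deviation of the 9 genes from their own means was 1.69 in C57 WT 34 and 1.33 in 129 WT 72, which is 10.95 and 8.74 scaled median absolute deviations from the median array. Another array, C57 WT 33, passed the limit of 3 such deviations with a mean deviation of 0.44 (3.37 deviations). It did so through Ttr: without Ttr, or with each gene divided by its own SD, the rule named C57 WT 34 and 129 WT 72 only. No KO array of either strain passed the limit. By group, the mean deviation ran from -0.43 to 0.22 in C57 KO with a median of -0.07, and from -0.40 to 1.69 in C57 WT with a median of -0.17. It ran from -0.21 to 0.27 in 129 KO with a median of 0.01, and from -0.29 to 1.33 in 129 WT with a median of -0.13. The actin 3' to 5' difference, a sign of RNA quality, was 1.04 in C57 WT 34 and 1.15 in 129 WT 72. The other arrays ran from 0.91 (129 KO 58) to 2.76 (129 WT 73). Results that rest on these arrays are given with and without them. In bulk tissue, more choroid plexus cells and more RNA of these genes per cell cannot be told apart.

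**Figure D1:**
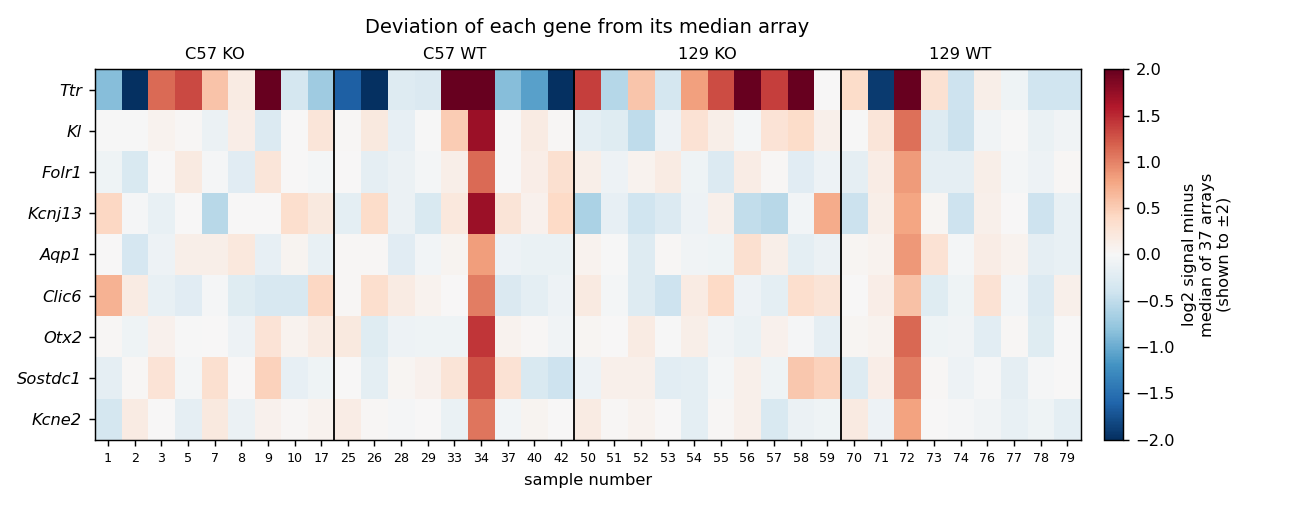
Log2 signal of each measured choroid plexus gene minus its median over the 37 arrays, with arrays as columns by sample number within their group and colours shown to 2 on either side. C57 WT 34 and 129 WT 72 are red in all 9 rows, and in the other columns the strongest colours are in the Ttr row.

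The carriers come first. Ttr encodes transthyretin, which the choroid plexus secretes to carry thyroxine and, with retinol-binding protein, retinol. The Ttr signal was 13.00 in C57 WT 34 and 12.75 in 129 WT 72, which is 55.7 and 46.9 times the median array at 7.20. The next arrays were C57 WT 33 at 11.01, 129 KO 56 at 10.21 and 129 KO 58 at 9.77, and the lowest was C57 WT 42 at 4.39. Both arrays thus lay above a gradient that already covered 6.62 log2 units over the other 35 arrays, and that gradient ran through all 4 groups.

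By group, the Ttr signal in C57 KO had a lowest value of 4.49, a median of 7.36 and a highest of 9.68, against 4.39, 6.35 and 13.00 in C57 WT. In 129 KO these values were 6.63, 8.27 and 10.21, against 5.28, 7.12 and 12.75 in 129 WT. All 9 C57 KO values lay within the range of C57 WT, and 5 of them lay above 6.95, the highest C57 WT value other than arrays 33 and 34. All 10 values of 129 KO lay within the range of 129 WT, and 7 of them lay above 7.57, the highest 129 WT value other than array 72. For these limits only WT arrays were left out, because of their high values, which raises both counts of KO arrays by construction. The medians were higher in KO than in WT in each strain, while the highest arrays were WT. C57 KO arrays averaged 7.32 ± 1.50 (SD, n = 9), and C57 WT arrays 7.24 ± 2.88 (SD, n = 9), or 6.52 ± 2.03 (SD, n = 8) when C57 WT 34 was left out. Arrays of 129 KO averaged 8.21 ± 1.17 (SD, n = 10), and those of 129 WT 7.55 ± 2.07 (SD, n = 9), or 6.90 ± 0.73 (SD, n = 8) when 129 WT 72 was left out. The other 3 Ttr probe sets had C57 WT 34 and 129 WT 72 as their highest arrays too, and followed the brightest one with r from 0.95 to 1.00 over the 37 arrays.

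Folr1 encodes folate receptor alpha, which carries folate across the choroid plexus epithelium. Its signal was 3.83 in C57 WT 34 and 3.55 in 129 WT 72, and no other array passed 3.01. The median was 2.68 in C57 KO and 2.69 in C57 WT, and 2.66 in both 129 KO and 129 WT. Its group means lay between 2.66 and 2.85, below the filter, where background was not separated from transcript. The elevation of both arrays was thus read from a low signal, and the order of the other 35 arrays, between 2.40 and 3.01, was not interpreted.

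Next are the channels for water and ions. Kcnj13 encodes the inward rectifier potassium channel Kir7.1 of the apical membrane. Its signal was 6.39 in C57 WT 34 and 5.46 in 129 WT 72, against 5.41 in the next array, 129 KO 59, and a median of 4.67. C57 WT 34 stood well clear, while 129 WT 72 exceeded 129 KO 59 by only 0.05. The lowest, median and highest values were 4.12, 4.68 and 5.08 in C57 KO against 4.37, 4.88 and 6.39 in C57 WT, and 4.03, 4.46 and 5.41 in 129 KO against 4.24, 4.67 and 5.46 in 129 WT. The groups overlapped in each strain.

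Clic6 encodes a member of the chloride intracellular channel family. Its signal was 6.83 in C57 WT 34 and 6.40 in 129 WT 72, but C57 KO 1 reached 6.50 and lay between them. Clic6 was the only measured member for which 129 WT 72 was not among the 2 highest arrays. The lowest, median and highest values were 5.48, 5.66 and 6.50 in C57 KO against 5.51, 5.84 and 6.83 in C57 WT, and 5.39, 5.87 and 6.21 in 129 KO against 5.54, 5.82 and 6.40 in 129 WT. A second Clic6 probe set again ranked C57 WT 34 at 1 and 129 WT 72 at 3.

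Aqp1 encodes the water channel aquaporin-1, and Kcne2 encodes a regulatory subunit of potassium channels. Both lay below the filter in every group mean. The Aqp1 signal was 3.30 in C57 WT 34 and 3.33 in 129 WT 72, against 2.79 in the next array, 129 KO 56. Aqp1 was the only gene with its highest signal in 129 WT 72. The Kcne2 signal was 3.23 in C57 WT 34 and 2.96 in 129 WT 72, against 2.35 in the next array, C57 KO 7. For both genes the pair of arrays lay apart from a narrow band that held the other 35, a band of 0.65 log2 units for Aqp1 and 0.54 for Kcne2.

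The signalling genes follow. Kl encodes klotho, a membrane protein that serves as coreceptor for FGF23 in the kidney and is abundant in the choroid plexus. Its signal was 5.25 in C57 WT 34 and 4.64 in 129 WT 72, against 4.05 in the next array, C57 WT 33, and a median of 3.54. The lowest, median and highest values were 3.26, 3.54 and 3.79 in C57 KO against 3.38, 3.56 and 5.25 in C57 WT, and 3.03, 3.57 and 3.91 in 129 KO against 3.10, 3.47 and 4.64 in 129 WT. The signal lay above the filter limit in 3 of 9 C57 KO and 4 of 9 C57 WT arrays, and in 5 of 10 arrays of 129 KO and 2 of 9 of 129 WT. Kl passed the filter through the C57 WT mean of 3.81 alone (3.63 without C57 WT 34). A second, dimmer Kl probe set with a median of 2.52 did not follow: it ranked C57 WT 34 at 30 and 129 WT 72 at 31 of the 37 arrays, with r = -0.25 to the first. Kl lies on the chromosome of Wfs1, with 967 protein-coding genes between them.

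Sostdc1 encodes a secreted antagonist of bone morphogenetic proteins that also modulates Wnt signalling. Its signal was 5.73 in C57 WT 34 and 5.48 in 129 WT 72, against 4.99 in 129 KO 58 and a median of 4.45. The lowest, median and highest values were 4.28, 4.45 and 4.91 in C57 KO against 4.04, 4.50 and 5.73 in C57 WT, and 4.25, 4.48 and 4.99 in 129 KO against 4.20, 4.44 and 5.48 in 129 WT. The 4 medians lay close together, and both WT groups reached higher only through their 1 high array each. A second Sostdc1 probe set ranked C57 WT 34 at 1 but 129 WT 72 at 8.

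Otx2 encodes a homeodomain transcription factor that the choroid plexus needs to form. Its signal was 3.48 in C57 WT 34 and 3.19 in 129 WT 72, while the other 35 arrays lay between 1.80 and 2.32. The median was 2.06 in C57 KO and 1.97 in C57 WT, and 2.04 in both 129 KO and 129 WT. These are signals below the filter. Relative to the width of the band of the other arrays, the gap of 0.87 between the 2 high arrays and the rest was nevertheless wide.

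OTX proteins are known to bind DNA with the core TAATCC. Since the members were high together in the same 2 arrays, the 250 bases before their annotated starts were searched on both strands for TAATC and for TAATCC, which contains it. RefSeq promoter windows (build GRCm38.p6) were at hand for 9 starts of 5 members, Kcnj13, Kl, Aqp1, Otx2 and Kcne2. TAATC or its reverse GATTA was in 3 of the 9 windows, against 19.8% of 32851 windows of the same length. TAATCC or its reverse GGATTA was in 1 of the 9, at a start of Otx2 itself, against 6.25% of all windows. The 3 windows with a match are shown, each in the gene's 5′ to 3′ direction, with the match to GATTA in capitals. They are the Kcnj13 window at chr1:87394730-87394979 on the minus strand, the Otx2 window at chr14:48665110-48665359 on the minus strand and the Kcne2 window at chr16:92292139-92292388 on the plus strand.
Kcnj13: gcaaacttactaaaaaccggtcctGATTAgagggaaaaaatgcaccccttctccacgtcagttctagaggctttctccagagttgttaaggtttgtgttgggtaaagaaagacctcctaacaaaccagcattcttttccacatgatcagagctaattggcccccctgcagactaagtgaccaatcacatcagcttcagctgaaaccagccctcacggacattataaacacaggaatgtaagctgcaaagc
Otx2: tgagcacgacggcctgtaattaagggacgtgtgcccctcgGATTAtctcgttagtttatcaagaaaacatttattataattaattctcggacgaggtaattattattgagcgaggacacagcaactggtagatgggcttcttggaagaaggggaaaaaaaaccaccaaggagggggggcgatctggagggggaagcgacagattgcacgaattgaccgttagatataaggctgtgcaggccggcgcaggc
Kcne2: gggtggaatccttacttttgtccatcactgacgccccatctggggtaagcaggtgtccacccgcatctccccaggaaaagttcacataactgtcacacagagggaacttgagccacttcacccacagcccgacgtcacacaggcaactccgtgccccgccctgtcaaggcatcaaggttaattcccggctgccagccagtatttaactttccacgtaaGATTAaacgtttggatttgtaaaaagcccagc
In the Otx2 window the capitals follow a g, which gives the longer core on the reverse strand. These matches describe the letters of the windows and do not show binding.

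**Figure D2:**
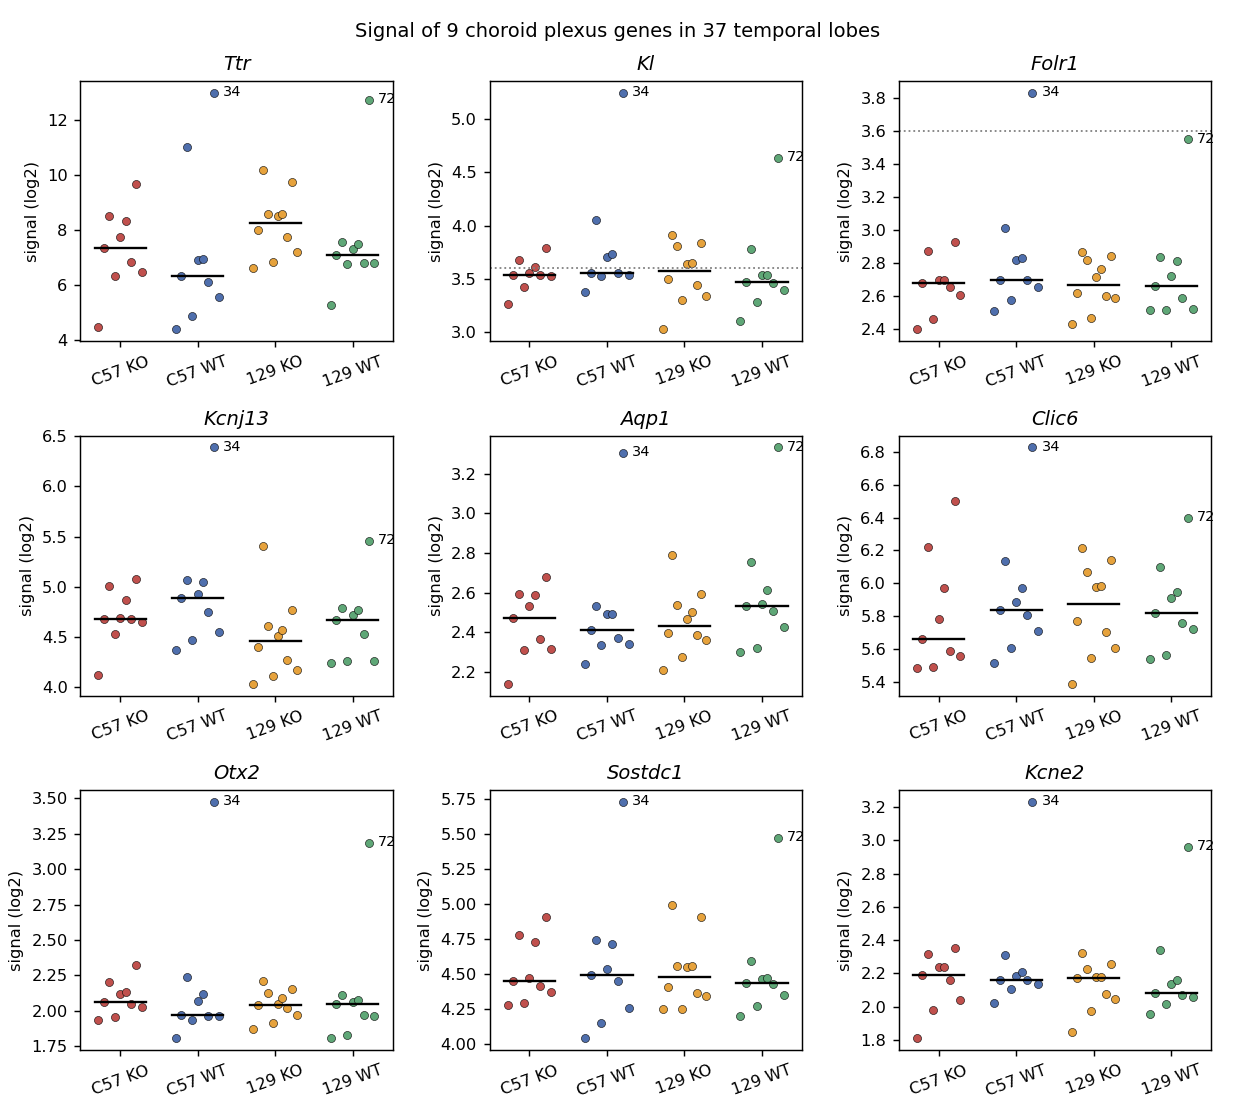
Log2 signal of the 9 measured choroid plexus genes, 1 point per array, in C57 KO, C57 WT, 129 KO and 129 WT, with bars at the group medians and a dotted line at the filter limit of 3.60 where it falls within a panel. Arrays 34 of C57 WT and 72 of 129 WT are labelled and lie above the rest of their own group in every panel.

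The arrays had been picked by the members' own values, so the members' ranks in them are a description. For 8 of the 9 measured members, C57 WT 34 and 129 WT 72 were the 2 highest of 37 arrays, and in 8 of 9 members C57 WT 34 was the higher of them. Among the 13078 genes past the filter, 8 (0.0612%) had these 2 arrays highest. Of these 8, 4 were members, namely Ttr, Kl, Kcnj13 and Sostdc1, and the other 4 were Ecrg4, Lbp, Steap1 and Col9a3. Over all 18193 genes, dim ones included, 23 (0.126%) had both arrays highest. Genes whose values did not enter the rule that picked the arrays were read next. Their list was chosen with earlier results of these data known. Among 40 other measured genes that the choroid plexus epithelium is known to express, 7 had both arrays highest. The mean deviation of the 28 of them past the filter was 0.35 in C57 WT 34 and 0.20 in 129 WT 72, which ranked first and second of the 37 arrays, while C57 WT 33 ranked at 21.

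The genes outside the members with the most similar profile were ranked by the correlation of their deviations from group means with the members' mean deviation over 37 arrays. The first was Ecrg4 (r = 0.82), which encodes a secreted peptide precursor of the choroid plexus, at 5.85 in C57 WT 34 and 5.33 in 129 WT 72 against 4.56 in the next array. Lbp (r = 0.60), which encodes the lipopolysaccharide-binding protein, was at 4.81 and 4.67 in these arrays against 4.37, and Col9a3 (r = 0.54), a collagen IX chain, was at 5.85 and 5.88 against 5.58. Steap1 (r = 0.49), a metalloreductase family member, had 4.72 and 4.75 against 4.67, so its margin was small. The other 8 of the 12 named by this ranking were Dmtf1, Abhd1, Skp1, Cfap126, Arhgap11a, Spata6, Cab39l and Hnrnpa2b1, with r from 0.42 to 0.49, and none of them had both arrays highest. Over the 35 arrays without the pair, r was lower for each of the 12 genes. Spata6 had 0.38 there against 0.43 over all arrays, and Hnrnpa2b1 0.28 against 0.42. The other 10 ran from -0.28 for Lbp to 0.22 for Skp1. All 12 genes were chosen for high r over arrays that included the pair, so the fall in r is a description.

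Further choroid plexus genes were picked out after their values had been seen, because both arrays were highest. Calml4, a calmodulin-like protein, was at 4.95 in C57 WT 34 and 4.39 in 129 WT 72, against 2.98 in the next array, C57 WT 33. F5, coagulation factor V, was at 3.96 and 3.77 against 3.12. Slc4a5, a sodium bicarbonate cotransporter of the epithelium's apical membrane, was at 2.80 and 2.53 against 2.25, and Cldn1, a tight junction claudin, at 3.26 and 3.24 against 3.23. These 4 genes lay below the filter. Most genes of the list did not share the pattern. Htr2c, a serotonin receptor that neurons express too, ranked C57 WT 34 at 14 and 129 WT 72 at 8, and Cldn2 ranked them at 9 and 7. Some genes were high in C57 WT 34 only: Slc13a4 ranked the arrays at 1 and 28, Igfbp2 at 1 and 23, and Abca4 at 1 and 34. Trpv4, below the filter, ranked them at 19 and 35.

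In each of the other 10 marker lists, at least 1 of the pair ranked at 16 or lower among the 37 arrays. For meningeal fibroblast genes, the 20 past the filter had a mean deviation of 0.28 in C57 WT 34 (rank 5) and of -0.38 in 129 WT 72 (rank 36). Ependymal and motile cilia genes ranked the arrays at 16 and 3, vessel markers at 16 and 36, hippocampus markers at 32 and 6, striatum markers at 10 and 26, and cortex and amygdala markers at 22 and 24. Hypothalamus and thalamus markers were low in both, at 32 and 36, with mean deviations of -0.13 and -0.21, and so were the 2 blood genes, at 36 and 30, with -0.39 and -0.21. Carriers and receptors of retinol, thyroid hormone and folate ranked the arrays at 17 and 34, and klotho and FGF partners at 21 and 32. No list other than the choroid plexus one held a gene with both arrays highest. The part of these markers in the members' values was not tested.

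The spread of the members depended on the same pair of arrays for some genes and not for others. The residual SD of Ttr around its group means was 1.99, the largest of the 13078 genes tested, whose median was 0.16. Without C57 WT 34 and 129 WT 72 it was 1.43 and still ranked second. Kl had an SD of 0.39 (rank 186) with all arrays and of 0.21 (rank 2435) without the pair, and Sostdc1 had 0.35 (rank 261) and 0.22 (rank 1955). Kcnj13 kept a rank of 439 (SD 0.31) and Clic6 one of 805 (SD 0.27) without the pair. Otx2, below the filter, had an SD of 0.33 with all arrays and of 0.12 without the pair, which is under the median of all genes tested. Over the other 35 arrays Ttr thus had the widest spread of the 9 members, and Kcnj13 and Clic6 came next, above 96.6% and 93.8% of the genes tested. The place of Clic6 rests on its brightest probe set. With group means left in, that probe set had an SD of 0.26 over the 35 arrays, and the second Clic6 probe set 0.16. The second followed the first with r = 0.26 there. The 4 members below the filter lay under the median of the genes tested.

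Whether the members varied together was asked over their 36 pairs, on deviations from group means. Pearson's r had a median of 0.66 and ran from 0.33 for Ttr and Clic6 to 0.86 for Folr1 and Otx2, with 33 pairs past an adjusted p of 0.05 in permutation tests over the 36 pairs. Spearman's rho, which weighs single arrays less, had a median of 0.20, and 3 pairs passed. Without the 2 arrays farthest from the median of each pair's first gene, r had a median of 0.19. Without C57 WT 34 and 129 WT 72 it had a median of -0.05, from -0.42 to 0.44, and 0 pairs passed, with 5 at an unadjusted p under 0.05. Within the set of 19 arrays the median r was 0.59 with and -0.03 without 129 WT 72, and within the set of 18 it was 0.69 with and -0.04 without C57 WT 34. Of the 36 pairs, 26 hold a member below the filter, whose values in the other 35 arrays carry no order, so low correlations there say little. Among the 10 pairs of the 5 members past the filter, r had a median of 0.64 with all arrays and of 0.11 without the pair. The 3 pairs among Kl, Kcnj13 and Clic6 had r of 0.35 each without it (permutation adjusted p from 0.290 to 0.299). Kl lay near the filter limit of 3.60, with a median of 3.54. The second probe sets of Kl and Clic6 followed those used here with r of -0.17 and 0.26 over the 35 arrays. C57 WT 34 and 129 WT 72 had been picked for high values of these same members, so the fall in r without them is a description.

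The closest pair that involved Ttr was Ttr and Sostdc1, with r = 0.75 and rho = 0.46 over 37 arrays (permutation adjusted p = 0.0028 and 0.051). Over the 35 other arrays it had r = 0.44 and rho = 0.42 (permutation p = 0.0169 and 0.0197, adjusted p = 0.290 and 0.168), with r = 0.14 within the 18 arrays left of the first set and 0.54 within the 17 left of the second. The second, dimmer Sostdc1 probe set followed the one used here with r = 0.27 over the 35 arrays. It ranked C57 WT 33 at 37 of the 37 arrays. The arrays next in Ttr, C57 WT 33, 129 KO 56 and 129 KO 58, differed in the other members. The mean deviation of the 4 others past the filter was 0.19 in C57 WT 33 (rank 5 of the 37 arrays), -0.19 in 129 KO 56 (rank 30) and 0.24 in 129 KO 58 (rank 4). Kl ranked C57 WT 33 at 3 and 129 KO 58 at 4, and Sostdc1 ranked 129 KO 58 at 3, while in 129 KO 56 none of the 4 ranked above 12.

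**Figure D3:**
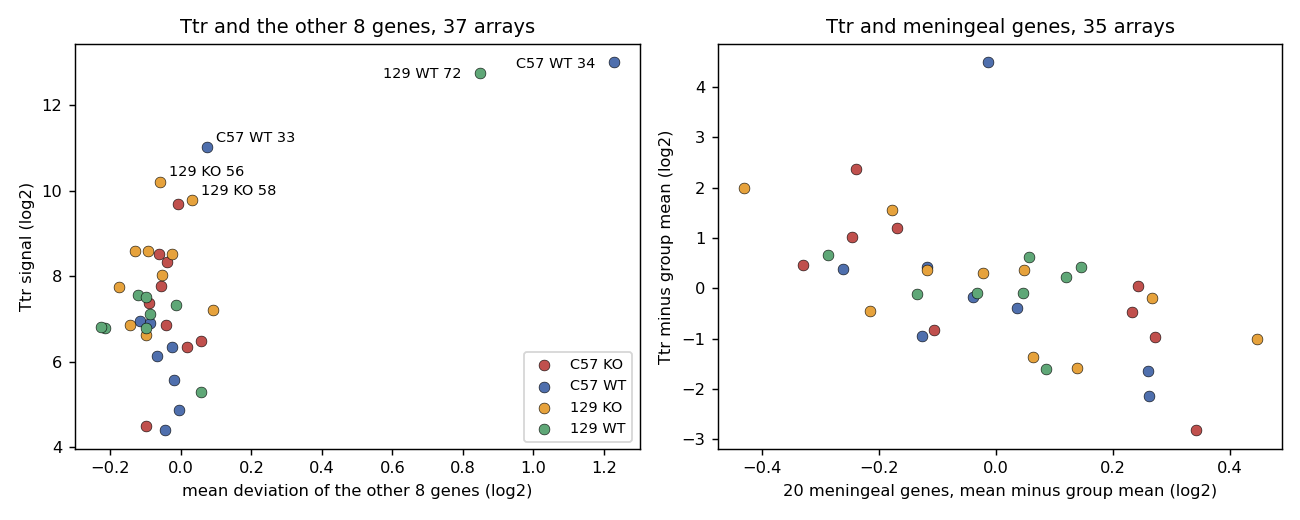
Left, Ttr signal against the mean deviation of the other 8 measured members, 4 of them below the filter, in 37 arrays, coloured by group. Right, Ttr against the mean of 20 meningeal fibroblast genes, both as deviations from group means, in the 35 arrays other than C57 WT 34 and 129 WT 72. On the left the pair lies alone at the upper right and the other arrays form a vertical band from 4.39 to 11.01, and on the right the points fall from upper left to lower right (r = -0.57).

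The gradient of Ttr over those 35 arrays was set against the mean of each of 11 marker lists, as deviations from group means, with p-values adjusted over the 11 relations. The meningeal fibroblast genes ran opposite to Ttr, with r = -0.57 (permutation p = 0.00058, adjusted p = 0.00638) and rho = -0.66 (permutation p = 0.0001, adjusted p = 0.0011). It was -0.65 without the 2 arrays farthest from the median, -0.74 within the 18 arrays left of the first set and -0.57 within the 17 left of the second. The other choroid plexus genes had r = -0.34 (permutation p = 0.0257, adjusted p = 0.0565) and rho = -0.39 (permutation p = 0.0204, adjusted p = 0.0449), with -0.49 and -0.28 within the sets, and so had no positive relation with Ttr there. Over all 37 arrays, the pair included, this list had r = 0.43 and rho = -0.03 (permutation adjusted p = 0.0699 and 0.875). The list of retinol, thyroid hormone and folate carriers and receptors had r = -0.44 and rho = -0.44 (permutation adjusted p = 0.0245 and 0.0359), the 2 blood genes r = -0.41 and rho = -0.36 (adjusted p = 0.037 and 0.0578), and cortex and amygdala markers r = 0.45 and rho = 0.46 (adjusted p = 0.0245 and 0.0332). Within the sets these 3 relations had r of -0.34 and -0.44, of -0.10 and -0.62, and of 0.26 and 0.55, and without the 2 farthest arrays r of -0.49, -0.26 and 0.42. Hippocampus markers had r = 0.38 and rho = 0.46 (permutation adjusted p = 0.0829 and 0.0332), with 0.47 and 0.69 within the sets and 0.37 without the 2 farthest arrays. The other 5 lists had r from -0.36 to 0.18 (permutation adjusted p from 0.0678 to 0.360). Over all 37 arrays r was -0.46 for meningeal genes, -0.41 for the carriers and receptors, -0.42 for vessel markers and -0.50 for blood. The permutation adjusted p was 0.0146 for each of them. Klotho and FGF partners had r = -0.40 there (adjusted p = 0.0459), and cortex and amygdala markers r = 0.30 (adjusted p = 0.0804).

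Single genes past the filter were also ranked by r with Ttr over the 35 arrays, in a ranking added after the data were seen. The most negative values were -0.69 for Pip4p1, -0.64 for Prodh, the proline dehydrogenase, -0.63 for Ptgis, the prostacyclin synthase, and -0.63 for Foxc2, a forkhead factor, none of which was in a list. Of the 12 most negative genes, 3 were in a list. They were Ptgds (-0.62), which encodes the prostaglandin D synthase made by meninges and choroid plexus, Bmp6 (-0.61), of the meningeal list like Ptgds, and Crabp2 (-0.60), a retinoic acid-binding protein. The highest positive values were 0.57 for Wsb1 and 0.55 for Ypel1, and 0 of the 12 most positive genes were in a list. These are the extremes of a ranking over all genes tested and are given as a description. What set the gradient of Ttr was not tested.

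The genotype comparison asked whether the loss of Wfs1 moved these genes. Of the 9 measured members, 5 passed the filter, Ttr, Kl, Kcnj13, Clic6 and Sostdc1, and Kl passed only through the C57 WT group. Of these 5, 0 were called in C57 KO against C57 WT by limma at an adjusted p under 0.05, where 0.107% of all genes tested were called, and 0 had an unadjusted p under 0.05 (6.37% of all genes). In 129 KO against 129 WT likewise 0 of 5 were called (0.00765% of all genes) and 0 had an unadjusted p under 0.05 (2.13%). With counts this small at 5 genes, a share of 0 is near the background. The differences ran from -0.26 to 0.07 in C57 and from -0.15 to 0.67 in 129, with medians of -0.12 and -0.02 against 0.02 and 0.00 over all genes tested.

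For Ttr, KO differed from WT by 0.07 in C57 (SE 0.87, 95% interval -1.68 to 1.83, limma adjusted p = 0.995) and by 0.67 in 129 (SE 0.85, interval -1.05 to 2.38, adjusted p = 1.00). These intervals hold ratios of signals from well under 1 to above 2 in either strain, so the data bound a Ttr difference only loosely. For Kl the C57 difference was -0.26 (SE 0.17, interval -0.61 to 0.08, adjusted p = 0.876) and the 129 difference -0.03 (SE 0.17). Kcnj13 differed by -0.24 (SE 0.19) in C57 and by -0.15 (SE 0.18) in 129. Clic6 differed by -0.12 (SE 0.14) and -0.02 (SE 0.14), and Sostdc1 by -0.05 (SE 0.16) and 0.00 (SE 0.15). All 5 differences lay within the spread between arrays.

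With no filter, 8 of the 9 members lay below 0 in C57 and 8 of 9 in 129, Ttr being the exception in both, and 0 were called (0.0879% and 0.0055% of all genes). Without C57 WT 34 and 129 WT 72, 4 of 9 lay above 0 in C57 and 7 of 9 in 129. Of the 5 past the filter, 0 were then called in either strain (0.107% and 0.00765% of all genes tested), and Ttr in 129 was the 1 member with an unadjusted p under 0.05 in either (5.22% and 2.51%). Since both arrays left out were WT and were chosen for high signals of these members, leaving them out raises KO over WT by construction. In 129 the majority of members turned from below to above 0 without the 1 high array. In C57 a majority of 5 of 9 stayed below 0, with a median of -0.00178 against -0.12 with all arrays.

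**Figure D4:**
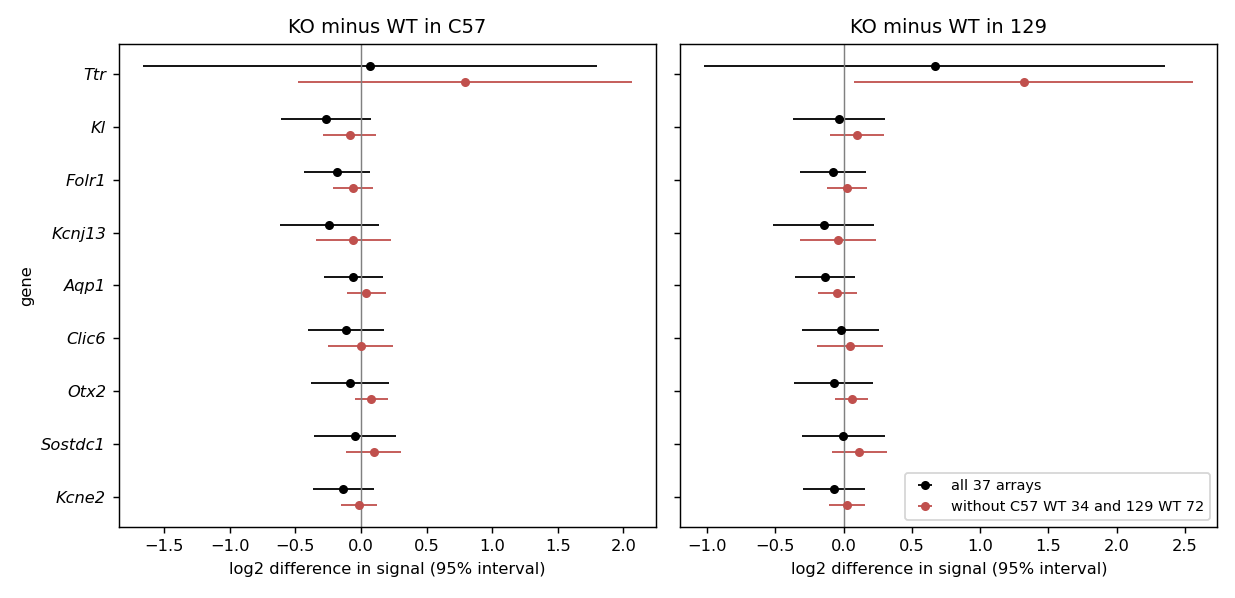
KO minus WT difference in log2 signal of the 9 measured members in C57 (left) and 129 (right), with 95% intervals from the fit with no filter, for all 37 arrays (black) and without C57 WT 34 and 129 WT 72 (red). With all arrays every interval holds 0, and without the pair every interval but that of Ttr in 129 does.

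Without the pair, Ttr differed by 0.79 in C57 (SE 0.64, unadjusted p = 0.223, limma adjusted p = 0.998) and by 1.32 in 129 (SE 0.62, unadjusted p = 0.0413, adjusted p = 1.00). Over both strains it was 0.37 higher in KO with all arrays (SE 0.61, limma adjusted p = 0.999) and 1.05 higher without the pair (SE 0.45, unadjusted p = 0.0234, adjusted p = 0.944). Leaving out C57 WT 33 as well gave 1.43 in C57 (SE 0.53, unadjusted p = 0.011, adjusted p = 0.709) and 1.37 over both strains (SE 0.37, adjusted p = 0.449). The adjusted p did not pass in any of these fits, in which the left-out arrays had been picked for their values. Within the set of 19 arrays Ttr differed by 1.01 in C57 (SE 1.05) and by -0.41 in 129 (SE 0.99), and within the set of 18 by -0.58 (SE 1.23) and by 1.85 (SE 1.23). 129 WT 72 fell in the set of 19, and C57 WT 34 fell in the set of 18 together with C57 WT 33. Within the sets, the sign was negative in the comparisons that held these arrays. Over all arrays, where each strain also held 1 of the pair, it was positive (0.07 in C57 and 0.67 in 129). The meningeal mean deviation, which ran opposite to Ttr, had a median of -0.11 in C57 KO and 0.14 in C57 WT, and of -0.09 in 129 KO and 0.04 in 129 WT. Its part in the Ttr medians was not tested.

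Over both strains together 0 of 5 members were called (0.0229% of all genes tested) and 0 had an unadjusted p under 0.05 (4.95%). Without the pair, 0 were called (0.0229%) and Ttr was the 1 with an unadjusted p under 0.05 (4.56%). The difference between the KO effects in C57 and 129 was called in 0 of 5 (0.0153% of all genes), with 0 at an unadjusted p under 0.05 (3.34%). For Ttr the difference between the KO effects, C57 minus 129, was -0.59 (SE 1.21, limma adjusted p = 0.999). A p that misses the threshold at this SE does not show that the effects were equal.

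The strain comparison asked the same of 129 against C57 on each genotype. It shares its arrays with the genotype comparison, so the values are not independent of those above. Among WT arrays 0 of 5 members were called in 129 against C57 (2.06% of all genes tested), and among KO arrays 0 of 5 (3.06%), with 0 at an unadjusted p under 0.05 in either (11.6% and 12.3%). Kcnj13 differed by -0.31 in WT (SE 0.19) and by -0.21 in KO (SE 0.18). Ttr differed by 0.30 in WT (SE 0.87) and by 0.90 in KO (SE 0.85). The lowest Ttr array of 129 KO, at 6.63, lay above 3 of the C57 KO arrays.

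In the list of other choroid plexus genes 0 of 28 were called in either direction in each of the 6 contrasts, with medians from -0.04 to -0.01. The lists of retinol, thyroid hormone and folate carriers and receptors (12 genes past the filter) and of klotho and FGF partners (6 genes) had 0 called in all 6 contrasts as well. Zmynd10, a protein that assembles motile cilia, was the only called gene in any of the 11 lists, Wfs1 itself aside: among KO arrays it was 0.28 higher in 129 than in C57 (SE 0.08, limma adjusted p = 0.0469). It was 1 of 12 genes of its list and 1 of 142 entries in the 11 lists, against 3.06% of all genes called in that contrast.

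Among markers of 2 neighbouring tissues none was called, but several had an unadjusted p under 0.05. Of 13 striatum markers, 0 were called in C57 KO against C57 WT, but 11 had an unadjusted p under 0.05 (6.37% of all genes), with a median difference of -0.37. Over both strains 10 of 13 did (4.95% of all genes), with a median of -0.25, and in 129 KO against 129 WT 0 did (2.13%), with a median of -0.15. The striatum mean deviation ran from -0.59 to 0.30 in C57 KO and from -0.38 to 0.64 in C57 WT, and from -0.46 to 0.26 in 129 KO and from -0.18 to 0.32 in 129 WT. Of 20 meningeal genes, 0 were called in 129 against C57 among WT arrays, and 9 had an unadjusted p under 0.05 (11.6% of all genes), with a median of -0.23. Genes of a list share each array's tissue, so they are not independent counts. The lists were also chosen with earlier results of these data known, so the counts are a description and no test of a list. The part of either tissue in the members' differences was not tested.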

How the data were processed

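The deposited table held log2 probe set signals for 37 arrays, normalized by the authors before deposit. MAS5 and GCRMA are both named, per the submitters' processing notes, which state no version and not which of them made these values. The deposited log2 values were used with no further scaling. Of 45101 probe sets, 64 were controls, 34945 had 1 gene symbol in the platform annotation, 932 had several and 9160 none, and the last 2 kinds were left out. For each of 18193 genes the brightest probe set on average was taken. Genes whose mean reached the 40th percentile (3.60) in at least 1 group were tested, 13078 in all.

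A limma fit (limma 3.58.1, R 4.3.3) of 4 group means to all 37 arrays gave 6 contrasts, 2-sided, with Benjamini-Hochberg adjustment over all genes tested and calls at 0.05. On simulated data of the same size, a shift of 0.5 (log2) was called in 90.5% of the changed genes for KO against WT in C57 and in 94.5% for 129. The changed genes were drawn at random from all genes tested, whose median residual SD was 0.16. The members past the filter had residual SDs from 0.33 (Clic6) to 1.99 (Ttr). The shares were not computed for genes with such a spread and do not apply to the members. Correlations were tested by 100000 permutations (Python 3.11.15, NumPy 2.4.6, SciPy 1.17.1, pandas 2.3.3; plots with matplotlib 3.10.9). An array was said to stand out when the members' mean deviation lay over 3 scaled median absolute deviations from the median array. The number of arrays limits the precision of every value.

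The members, the 11 marker lists (other choroid plexus epithelium, ependyma and motile cilia, meningeal fibroblasts, retinol, thyroid hormone and folate carriers, klotho and FGF partners, hippocampus, striatum, vessels, blood, hypothalamus and thalamus, cortex and amygdala) and the tests were chosen with earlier results of these data known. Named genes were the 10 members, the 12 genes most like them, Wfs1, and up to 4 genes of a list, called ones first. Further genes of the choroid plexus list were named after their values had been seen. Wfs1 was taken out of the hippocampus list, since its loss is the genotype. Array sets, leaving out C57 WT 34 and 129 WT 72 only, and the ranking by Ttr were chosen after seeing the data. Promoter windows came from RefSeq (GRCm38.p6) and matched 5 of the 10 members. Alternatives were no filter, a 60th percentile filter, quantile normalization, median centring, probe sets averaged per gene, every probe set, array weights, eBayes with trend and robust, a fit of the compared groups alone, a covariate from the first residual principal component, group medians, and leaving out each array.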

Additional observations from a re-analysis of the deposited data

Results flagged for a closer look

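In C57 WT, 1 array lay farther from the rest of its group than Dixon's limit for 9 arrays in 9 of the 10 sets of values tested, and it was C57 WT 34 each time. It was highest in Kl (5.25, next array 4.05), Folr1 (3.83, next 3.01), Kcnj13 (6.39, next 5.06), Aqp1 (3.30, next 2.53), Clic6 (6.83, next 6.14), Otx2 (3.48, next 2.24), Sostdc1 (5.73, next 4.74) and Kcne2 (3.23, next 2.31), and in the mean deviation of the members (1.69, next 0.44). Ttr of C57 WT did not pass the limit, since C57 WT 33 lay next to C57 WT 34.

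In 129 WT the array was 129 WT 72, highest in Ttr (12.75, next 7.57), Kl (4.64, next 3.78), Folr1 (3.55, next 2.84), Kcnj13 (5.46, next 4.79), Aqp1 (3.33, next 2.75), Otx2 (3.19, next 2.11), Sostdc1 (5.48, next 4.59) and Kcne2 (2.96, next 2.34), and in the mean deviation of the members (1.33, next -0.04). Clic6 did not pass there.

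In all, 18 of 40 sets passed, with 0 of them in C57 KO or 129 KO. Chance flags about 1 in 20 sets, but the 40 sets share arrays and genes, and these same values had named both arrays as standing apart. The count is therefore a description and is not set against that share.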

How the results depend on the processing

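The count of called members stayed at 0 in all 6 contrasts under every alternative run and with each array left out. The lowest adjusted p of any member was 0.32, for 129 against C57 among the WT arrays of the second array set. With 1 array left out in turn, Ttr in KO against WT ran from -0.28 to 0.79 in C57 and from 0.38 to 1.32 in 129, and over the other alternatives from -0.58 to 1.43 and from -0.41 to 1.85. Of 416 differences under an alternative, 50 changed sign, and of 1110 with 1 array left out 56 did. None of these was called. The median correlation between members, 0.66, was 0.196 by Spearman, 0.193 without the 2 arrays farthest from the median, -0.0544 without the 3 arrays that stood out and -0.0470 without C57 WT 34 and 129 WT 72. Without that pair the residual SD was 0.214 for Kl, 0.155 for Folr1, 0.152 for Aqp1, 0.118 for Otx2, 0.224 for Sostdc1 and 0.135 for Kcne2. No paired analysis was possible because sample numbers differ between the groups and pair nothing. Folr1, Aqp1, Otx2 and Kcne2 lay below the filter, where background was not separated from transcript, and in the 2 high arrays only Folr1 in C57 WT 34 passed 3.60. Their probe sets, and the dimmer one of Kl, limit what these arrays show.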
